A study of Mus musculus with 20 samples.

Results

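Nr4a1, Nr4a2, Nr4a3, Egr1, Egr2, Egr3, Cd69 and Cd83 are genes that lymphocytes switch on after their antigen receptor is engaged, and these 8 genes were taken by name from the 31053 counted in every library. They were read in single-cell RNA-sequencing (scRNA-seq) of live, unsorted spleen and sub-mandibular lymph node cells of 13 transgenic mice, 7 of which gave both tissues. Of 84231 cells kept in 20 libraries, 30890 passed as B cells (at least 3 transcripts of Cd79a and Cd79b together, no Cd3 transcript and under 20 of Jchain) and 23952 as T cells. Values are unique molecular identifiers (UMIs, counted transcripts) summed over the cells of a class in a library and given as CPM (the UMIs of a gene scaled to the same total in every class and library), and each library stands for 1 tissue of 1 mouse. The p-values between groups therefore measure the spread between mice of which each tissue was read once.

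Eµ-PRMT5 mice (5 spleens) carry a human PRMT5 cDNA, Eµ-TCL1 mice (4 spleens and 3 lymph nodes) a human TCL1 transgene, and Eµ-PRMT5/TCL1 mice (4 spleens and 4 lymph nodes) both. The PRMT5 transgene is driven in B cells by an immunoglobulin heavy chain V promoter with the Eµ enhancer. The labels give the strain as C57BL/6N for every group, whereas the study's methods name C57BL/6J for the Eµ-TCL1 mice used in the cross. Per the study's methods, Eµ-PRMT5 mice were heterozygotes bred from several founders, one of them with the same number as a mouse sampled here (E4474), and the double transgenics came from a cross with homozygous Eµ-TCL1 mice. All were taken when they met the criteria for early removal, with the sexes mixed, and their ages are not in the labels. The study reports the longest median survival for Eµ-PRMT5 mice and the shortest for Eµ-PRMT5/TCL1 mice. Age at removal may therefore differ between the genotypes, and genotype and age cannot be told apart here. No spleen without a transgene was among the libraries analysed here, so each genotype could be compared only with another transgenic one. The human transgenes need not be counted by a mouse reference, so they were not used to check the labels.

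The 3 groups of members work at different steps. NR4A1, NR4A2 and NR4A3 (also called NUR77, NURR1 and NOR1) are nuclear receptors that act as transcription factors without a known classical hormone, and in lymphocytes their transcripts rise quickly with antigen-receptor signals and restrain activation. EGR1, EGR2 and EGR3 are zinc-finger transcription factors induced through calcium and the RAS-ERK pathway, and EGR2 and EGR3 in turn induce feedback inhibitors of receptor signalling. CD69 is a surface lectin that binds the sphingosine phosphate receptor S1PR1 and keeps activated lymphocytes in lymphoid tissue, and CD83 is a surface protein of activated B cells and dendritic cells that stabilises MHC class II and CD86. In chronic lymphocytic leukaemia (CLL), such genes are known to be raised in cells that have recently met antigen in lymphoid tissue. Warm handling and dissociation of tissue can also raise early-response genes, so genes of that kind are reported beside the members.

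The promoter windows that RefSeq gives for the members (build GRCm38.p6, bases 1 to 250 before the start) are shown because the Nr4a windows share short elements with one another. Windows were at hand for 4 of the 8 members, namely the 3 Nr4a genes and Egr2, which has 5 of the 8 windows. Capitals mark the cAMP-response half-site TGACG or its other strand CGTCA, and in Egr2 also a CArG box, the element bound by serum response factor. Nr4a1 lies on the plus strand at chr15:101266596-101266845, Nr4a2 on the minus strand at chr2:57124004-57124253, Nr4a3 on the plus strand at chr4:48045055-48045152 and Egr2 on the plus strand at chr10:67537619-67537868. For Nr4a3 the 98 bases before the annotated exons are printed, since the other 152 bases of its window lie in exons. The printed Nr4a1 and Egr2 windows lie inside the annotated span of their gene, so they precede a start within it. The printed windows of Nr4a1, Nr4a2 and Egr2 precede the principal start of the GENCODE annotation, and that of Nr4a3 does not.
Nr4a1: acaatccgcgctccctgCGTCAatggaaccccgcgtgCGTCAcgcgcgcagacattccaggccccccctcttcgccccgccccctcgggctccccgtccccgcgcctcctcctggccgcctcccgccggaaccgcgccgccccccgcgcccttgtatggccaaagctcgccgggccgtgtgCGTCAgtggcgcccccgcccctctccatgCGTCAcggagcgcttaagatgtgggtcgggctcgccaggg
Nr4a2: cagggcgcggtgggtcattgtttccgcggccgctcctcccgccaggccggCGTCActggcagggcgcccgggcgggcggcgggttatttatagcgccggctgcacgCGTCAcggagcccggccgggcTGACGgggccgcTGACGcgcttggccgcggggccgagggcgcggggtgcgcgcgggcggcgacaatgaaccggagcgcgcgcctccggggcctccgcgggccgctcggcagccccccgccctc
Nr4a3: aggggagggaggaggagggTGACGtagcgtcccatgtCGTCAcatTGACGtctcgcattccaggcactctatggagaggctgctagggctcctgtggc
Egr2: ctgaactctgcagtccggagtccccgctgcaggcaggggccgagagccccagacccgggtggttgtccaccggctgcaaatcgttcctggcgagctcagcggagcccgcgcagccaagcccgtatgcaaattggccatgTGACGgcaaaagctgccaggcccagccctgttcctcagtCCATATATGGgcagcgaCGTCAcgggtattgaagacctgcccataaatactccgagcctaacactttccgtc
Each of the 3 Nr4a windows held 4 half-sites, of which 3 fall in the printed part for Nr4a3. Among all 32851 windows in the table, 17.8% held at least 1 half-site of 5 bases on either strand and 0.137% held at least 4. The Egr2 window printed held 2 half-sites and 1 CArG box. At least 2 half-sites were held by 3.90% of all windows and a CArG box by 1.47%. Of the other 4 Egr2 windows, 2 that overlap the printed one held the same counts, 1 held a CArG box and no half-site, and 1 held neither. Such matches describe the letters of the windows and say nothing about whether a factor was bound.

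All 10 B-cell markers were detected in the B cells of every group, and their summed level was 16713 to 34948 CPM in 19 libraries but 6790 CPM in Eµ-PRMT5 spleen 4. The B cells of that spleen also had the highest median depth, 16712.5 UMIs a cell against 4267 in the shallowest library, and only 45 T cells were kept from it. The comparisons of Eµ-PRMT5 spleens are therefore also given without this library. Each library was left out in turn, but this one was singled out after the data were seen. In B cells it was the lowest Eµ-PRMT5 spleen for Nr4a1, Nr4a3, Egr1, Egr3, Cd69 and Cd83. In the T cells all 11 T markers were detected, with a summed level of 2937 to 6251 CPM, while the T markers in B cells summed to at most 205 CPM with Cd3d, Cd3e and Cd3g at 0 by the gate. Total UMIs per library lay between 9348094 and 72440894, and no 2 libraries shared more than 1.34% of their cell barcodes.

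Nr4a1 (ENSMUSG00000023034, chromosome 15, GRCm38 101254269 to 101274795) was the Nr4a gene read in the largest share of B cells. In B cells of the Eµ-PRMT5 spleens it stood at 2263, 353, 1229, 200.4 and 482 CPM in replicates 1 to 5. The 4 Eµ-TCL1 spleens stood at 153, 81.5, 138 and 103 CPM, and the 4 Eµ-PRMT5/TCL1 spleens at 151, 80.9, 306 and 904 CPM. Every Eµ-PRMT5 spleen was thus above every Eµ-TCL1 spleen, and replicates 1 and 3 stood far above the other 3. The double transgenic spleens spread over both ranges, with replicate 4 the highest of them, below replicates 1 and 3 of Eµ-PRMT5. By group the mean was 905 ± 856 CPM (SD, n = 5) in Eµ-PRMT5 spleens, followed by the double transgenic nodes at 574 ± 544 (n = 4) and the double transgenic spleens at 361 ± 374 (n = 4). Eµ-TCL1 nodes came next at 329 ± 147 (n = 3), and the Eµ-TCL1 spleens were lowest at 119 ± 32.6 (n = 4). In this order neighbouring groups overlapped, except that the lowest Eµ-TCL1 node was above the highest Eµ-TCL1 spleen, as for 3.6% of all genes. This separation held for CPM only. By share of B cells with a Nr4a1 transcript, read at equal depth, the lowest Eµ-TCL1 node was at 10.1% and the highest Eµ-TCL1 spleen at 11.5%.

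Nr4a3 (ENSMUSG00000028341, chromosome 4, 48045153 to 48086447) was low in B cells of most spleens. It was at 75.2, 19.2, 63.7, 3.54 and 8.90 CPM in the Eµ-PRMT5 spleens and at 3.53, 1.02, 1.56 and 1.76 CPM in the Eµ-TCL1 spleens. These ranges did not overlap, though replicate 4 of Eµ-PRMT5 and replicate 1 of Eµ-TCL1 were nearly level. The Eµ-PRMT5/TCL1 spleens were at 2.63, 1.88, 8.07 and 6.65 CPM. Nr4a2 (ENSMUSG00000026826, chromosome 2, 57106830 to 57124003) was at 168, 2.26, 21.8, 29.0 and 10.7 CPM in the Eµ-PRMT5 spleens, against 0.705, 0.449, 7.30 and 4.10 CPM in the Eµ-TCL1 spleens. Here replicate 2 of Eµ-PRMT5 fell inside the Eµ-TCL1 range, and replicate 1 stood alone at the top. In Eµ-PRMT5/TCL1 spleens Nr4a2 was at 1.3003, 1.13, 9.95 and 7.61 CPM.

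The Egr genes varied widely inside every spleen group. Egr1 (ENSMUSG00000038418, chromosome 18, 34859823 to 34864984) was at 455, 37.0, 263, 21.1 and 222 CPM in Eµ-PRMT5 spleens, 50.1, 117, 209 and 29.0 CPM in Eµ-TCL1 spleens and 26.3, 25.2, 78.7 and 571 CPM in Eµ-PRMT5/TCL1 spleens. Each group held libraries at both ends of the scale, so the ranges overlapped throughout. Egr2 (ENSMUSG00000037868, chromosome 10, 67535475 to 67542188) was at 48.9, 4.15, 119, 5.45 and 18.4 CPM in Eµ-PRMT5 spleens, 9.31, 3.80, 60.1 and 0.762 CPM in Eµ-TCL1 spleens and 5.87, 5.64, 19.8 and 125 CPM in Eµ-PRMT5/TCL1 spleens. Egr3 (ENSMUSG00000033730, chromosome 14, 70077203 to 70082614) was at 34.9, 11.7, 61.2, 0.425 and 17.8 CPM, at 10.3, 6.85, 26.8 and 1.38 CPM, and at 10.8, 16.9, 6.59 and 36.7 CPM in the same 3 groups. The same spleens were high for all 3 Egr genes: replicates 1 and 3 of Eµ-PRMT5, replicate 3 of Eµ-TCL1 and replicate 4 of Eµ-PRMT5/TCL1.

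Cd69 (ENSMUSG00000030156, chromosome 6, 129267325 to 129275436) was at 853, 180, 296, 47.1 and 328 CPM in B cells of Eµ-PRMT5 spleens and at 24.7, 87.1, 44.6 and 35.6 CPM in those of Eµ-TCL1 spleens. All Eµ-PRMT5 spleens but replicate 4 were above the Eµ-TCL1 range. The Eµ-PRMT5/TCL1 spleens were at 54.9, 59.0, 32.2 and 268 CPM. Cd83 (ENSMUSG00000015396, chromosome 13, 43784775 to 43803132) was at 2108, 617, 1299, 445 and 997 CPM in Eµ-PRMT5 spleens, 401, 594, 458 and 297 CPM in Eµ-TCL1 spleens and 462, 233, 422 and 1228 CPM in Eµ-PRMT5/TCL1 spleens. Eµ-TCL1 spleens had the lowest group mean for 7 of the 8 genes. For Nr4a2 the lowest mean was in Eµ-TCL1 nodes, 2.94 ± 4.198 CPM (n = 3), next to 3.14 ± 3.23 CPM (n = 4) in Eµ-TCL1 spleens. Eµ-PRMT5 spleens had the highest mean CPM for all members but Egr1, which was highest in Eµ-TCL1 nodes at 293 ± 192 CPM (n = 3). For Egr2 the Eµ-PRMT5 and Eµ-PRMT5/TCL1 spleens were nearly level, at 39.2 ± 48.1 CPM (n = 5) and 39.1 ± 57.6 CPM (n = 4). By share of B cells with an Egr2 transcript, read at equal depth, Eµ-PRMT5 spleens (3.19%) were below Eµ-PRMT5/TCL1 spleens (3.43%) and nodes (3.83%).

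**Figure D1:**
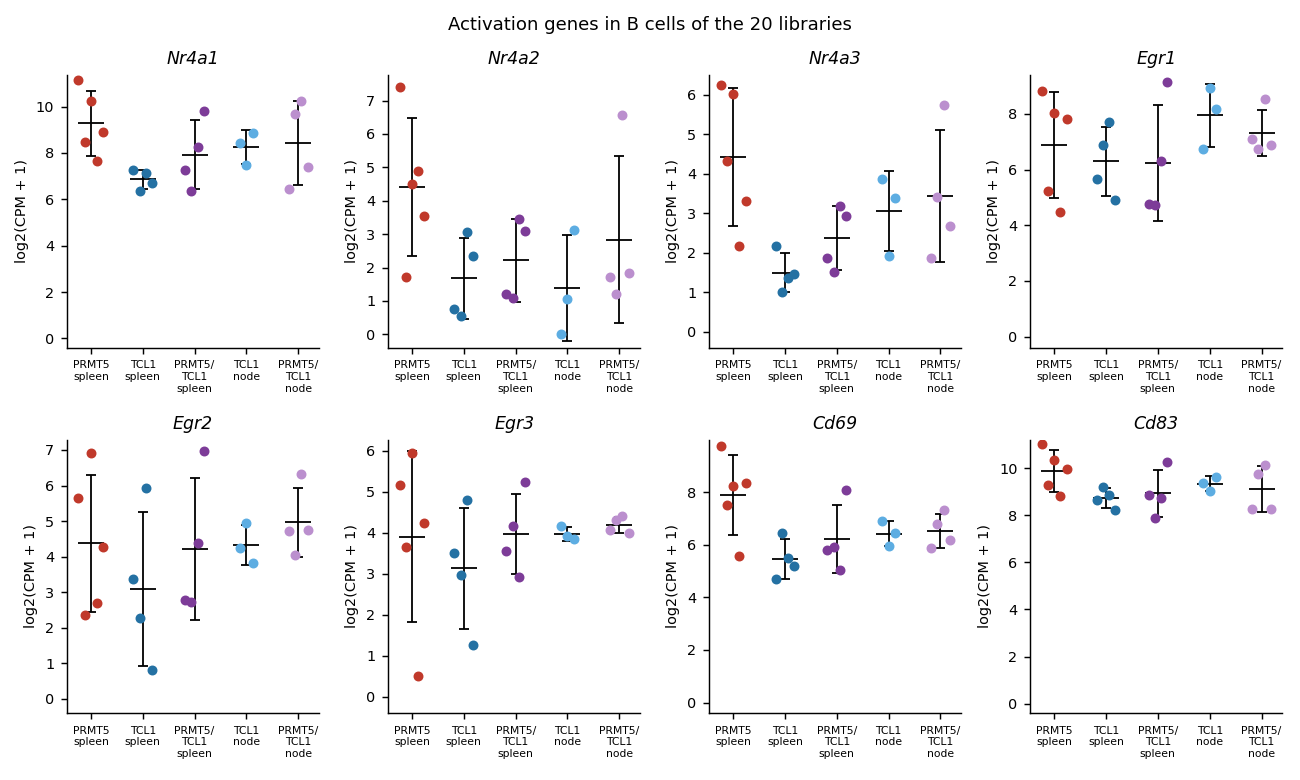
Level of each gene in B cells of the 20 libraries, as log2(CPM + 1) on the vertical axis, by genotype and tissue. Points are libraries, horizontal bars the group mean and whiskers 1 SD. For Nr4a1 and Nr4a3 every Eµ-PRMT5 spleen lies above every Eµ-TCL1 spleen, while for the Egr genes the groups overlap.

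The comparison of the single transgenes asked whether B cells of Eµ-PRMT5 and Eµ-TCL1 spleens differ in these genes. All 8 members were higher in Eµ-PRMT5 spleens, by a median of 1.94 on the log2 scale against 0.02 over the 11541 genes tested, but none passed edgeR's quasi-likelihood test at an adjusted p of 0.05. That test called 0.026% of all genes. At an unadjusted p under 0.05 it passed 5 members (Nr4a1, Nr4a2, Nr4a3, Cd69 and Cd83) and 17.1% of all genes. DESeq2 called 4 members (Nr4a1, Nr4a2, Nr4a3 and Cd69) and 5.46% of all genes. The change was 15.8-fold for Nr4a3 (log2 3.98, SE 0.83, edgeR adjusted p = 0.0903, DESeq2 adjusted p = 2.32e-05) and 6.79-fold for Nr4a1 (log2 2.76, SE 0.73, edgeR adjusted p = 0.124, DESeq2 adjusted p = 0.00227). It was 13.7-fold for Nr4a2 (log2 3.78, SE 1.198, edgeR adjusted p = 0.154), 6.44-fold for Cd69 (log2 2.69, SE 0.73, edgeR adjusted p = 0.125) and 2.29-fold for Cd83 (log2 1.197, SE 0.45, edgeR adjusted p = 0.208). Egr1, Egr2 and Egr3 differed by 0.82 to 0.95 on the log2 scale, with standard errors of 0.93 to 1.22 and edgeR adjusted p of 0.631 to 0.752.

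This comparison turned on single libraries. Without Eµ-PRMT5 spleen 4, the library with few B-cell markers, edgeR called Nr4a1 (log2 3.00, adjusted p = 0.0470), Nr4a3 (log2 4.29, adjusted p = 0.0241) and Cd69 (log2 2.95, adjusted p = 0.0427) together with 2.82% of all genes. Without Eµ-PRMT5 spleen 5 it called Nr4a3 alone of the members (log2 4.22, adjusted p = 0.0445) and 0.596% of all genes. Without Eµ-PRMT5 spleen 1 none passed, and Nr4a2 went from 13.7-fold to 5.33-fold, Nr4a1 from 6.79-fold to 4.31-fold and Cd69 from 6.44-fold to 4.10-fold. Without Eµ-PRMT5 spleen 3 none passed either, and Egr2 turned to -0.05 on the log2 scale. Nr4a1 and Nr4a3 were among the 3.05% of genes whose CPM was higher in every Eµ-PRMT5 than in every Eµ-TCL1 spleen. In bulk sums of this kind, more cells that express a gene and more RNA in each such cell cannot be told apart, so shares of cells were read as well.

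To compare shares, every cell was thinned to 1500 UMIs, which left out no cell since the shallowest cell kept had 1745. Nr4a1 was seen in 33.2% ± 15.6 (n = 5) of B cells in Eµ-PRMT5 spleens and in 8.64% ± 1.97 (n = 4) in Eµ-TCL1 spleens (56.3% and 21.1% before thinning). Its lowest Eµ-PRMT5 library was at 18.6% and its highest Eµ-TCL1 library at 11.5%. Cd69 was seen in 27.7% ± 16.6 against 5.88% ± 2.73 (53.7% and 18.9% before thinning), and Cd83 in 56.5% ± 12.7 against 35.8% ± 7.16 (84.7% and 69.8%). The exact two-sided permutation p over 5 against 4 spleens was 0.0159 for Nr4a1, 0.0238 for Cd69 and 0.0317 for Cd83, and 12.1% of all genes had an exact p under 0.05. No gene passed after adjustment over all genes, and the adjusted p of these 3 was 0.342 to 0.375. With 5 against 4 spleens the exact p cannot go below 0.00794, which leaves little room to pass. Nr4a2 was seen in 3.81% ± 4.41 against 0.388% ± 0.366 of B cells and Nr4a3 in 3.74% ± 3.26 against 0.297% ± 0.167, with exact p of 0.111 and 0.0635. When spleen 4 of Eµ-PRMT5 was left out, the share there was 36.8% ± 15.4 (n = 4) for Nr4a1, 33.2% ± 13.02 for Cd69 and 60.7% ± 9.92 for Cd83. Again no member passed after adjustment. With 4 against 4 spleens the exact p cannot go below 0.0286, so that outcome was largely fixed by the design.

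Several other measures were read beside these levels, and their part in the result was not tested. Free RNA, read from barcodes with under 100 UMIs, had a higher mean in Eµ-PRMT5 than in Eµ-TCL1 spleens for 7 of 8 members, all but Egr3. For Nr4a1 and Nr4a2 the ranges lay apart by a narrow margin. How many of all genes do so in free RNA was not computed, so this only describes the 2 genes. Free RNA held 148 to 504 CPM of Nr4a1 in Eµ-PRMT5 and 87.4 to 138 CPM in Eµ-TCL1 spleens, and 37.6 to 95.3 CPM against 16.5 to 34.5 CPM of Nr4a2. For Nr4a3 it was 10.4 CPM in Eµ-PRMT5 spleen 4 and 51.5 to 108 CPM in the other 4, against 9.76 to 17.6 CPM in Eµ-TCL1 spleens. For Cd69 it was 59.4 CPM in spleen 4 and 140.4 to 312 CPM in the other 4, against 75.1 to 99.5 CPM. The means were closer for Cd83 (286 against 236 CPM), Egr1 (100.4 against 94.4 CPM), Egr2 (13.8 against 11.4 CPM) and Egr3 (7.75 against 8.40 CPM), and their ranges overlapped. Nr4a3 in B cells was below the free-RNA level of its own library in all 20 libraries, while Nr4a1 was above it in all 5 Eµ-PRMT5 spleens and in 1 of the 4 Eµ-TCL1 spleens. Cd69 in B cells was below it in all 4 Eµ-TCL1 and in 1 of the 5 Eµ-PRMT5 spleens. Nr4a2 was below it in all 4 Eµ-TCL1 and in 4 of the 5 Eµ-PRMT5 spleens. The Eµ-PRMT5 spleens 1 and 3, with the highest levels, had a median of 4738 and 4267 UMIs in their B cells, against 5845 to 8404.5 UMIs in Eµ-TCL1 spleens. Their most used heavy-chain V gene held 43.8% and 31.1% of the Ighv UMIs, while it held 94.3% to 99.9% in 3 of the 4 Eµ-TCL1 spleens and 38.0% in the remaining one, replicate 3. Of 16 genes linked to cell stress and tissue handling, 13 had a higher fitted level in Eµ-PRMT5 spleens, with a median of 0.94 on the log2 scale, and edgeR called none of them. Their summed level in B cells was 4734 to 10834 CPM in Eµ-PRMT5 spleens and 3128 to 5477 CPM in Eµ-TCL1 spleens. Hspa1a and Hspa1b, which encode inducible heat shock protein 70, showed the largest differences of that list (8.11-fold and 9.51-fold, edgeR adjusted p = 0.154 and 0.191). Neutrophil markers in the B cells ranged from 32.9 to 3061 CPM in Eµ-PRMT5 and from 141 to 2148 CPM in Eµ-TCL1 spleens, and all 9 were detected in both groups.

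Other genes of the same response were read from lists chosen by function. Of 39 other immediate early and receptor-induced genes tested, 36 had a higher fitted level in Eµ-PRMT5 spleens (median 1.13 on the log2 scale), but edgeR called none. The chemokine gene Ccl3 differed by 7.95-fold (adjusted p = 0.294) and Fos, a subunit of the AP-1 transcription factor, by 5.74-fold (adjusted p = 0.225). Genes of the receptor signalling cascade itself did not share this direction, since 12 of 29 were higher and their median was -0.09. Its largest differences were for Cr2, the complement receptor of marginal zone and follicular B cells (18.2-fold, adjusted p = 0.143), and the kinase gene Fyn (5.28-fold, adjusted p = 0.154). Of 16 genes for inhibitors of receptor signalling, which include receptors, phosphatases, kinases, an adaptor and ubiquitin ligases, 5 were higher. Pirb and Lair1, both genes for inhibitory receptors, were furthest from 0 (log2 -0.99 and -0.88, edgeR adjusted p = 0.245 and 0.527). Of 16 partners and regulators of the members, such as Crem and Mef2c, 12 were higher with a median of 0.15. edgeR called none of these genes either.

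Eµ-PRMT5/TCL1 spleens were set against Eµ-TCL1 spleens to read the addition of PRMT5 to TCL1. The study's methods do not say how many copies of the TCL1 transgene the Eµ-TCL1 mice carried, so that number may differ too. All 8 members had a higher fitted level in the double transgenics, by 0.23 (Cd83) to 1.37 (Nr4a1) on the log2 scale with a median of 0.69. The standard errors were 0.46 to 1.27, and every adjusted p was 1. edgeR called no member at the adjusted level (0.00866% of all genes) or at an unadjusted p under 0.05 (4.51% of all genes), and DESeq2 called none (0.213% of all genes). The direction of the Egr genes and of Cd83 rested on Eµ-PRMT5/TCL1 spleen 4: without it, the log2 change was -1.22 for Egr1, -0.82 for Egr2, -0.06 for Egr3 and -0.24 for Cd83. That of Nr4a2 was -0.11 without Eµ-PRMT5/TCL1 spleen 3. Of the other immediate early genes 29 of 39 had a higher fitted level in the double transgenics (median 0.29), and of the stress genes 11 of 16 (median 0.28), and so had 19 of 29 receptor signalling genes, 12 of 16 inhibitors and 10 of 16 partners, with none called by edgeR. The stress gene furthest from 0 ran the other way, Plk2, a polo-like kinase gene, at -2.95 (SE 1.11, edgeR adjusted p = 1). The chemokine genes Ccl3 and Ccl4 had the largest differences of the early genes (9.22-fold and 9.07-fold, both with an edgeR adjusted p of 1). In Eµ-PRMT5/TCL1 spleen 4, 37.7% of B cells held a Nr4a1 transcript after thinning, against 7.84% to 17.1% in the other 3, and 26.3% held a Cd69 transcript against 4.06% to 7.21%.

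Set against the Eµ-PRMT5 spleens, the Eµ-PRMT5/TCL1 spleens had lower fitted levels of all 8 members, with a median log2 change of -1.18. The comparison uses the same Eµ-PRMT5/TCL1 libraries as the one before. edgeR called no member and 0% of all genes. At an unadjusted p under 0.05 it passed 4 members, Nr4a2, Nr4a3, Cd69 and Cd83, and 8.74% of all genes. DESeq2 called 1 member, Nr4a3, and 0.976% of all genes. The log2 change was -3.16 (SE 1.16, adjusted p = 0.495) for Nr4a2, -2.70 (SE 0.77, adjusted p = 0.403) for Nr4a3 and -1.82 (SE 0.71, adjusted p = 0.512) for Cd69 by edgeR. For the 3 Egr genes it was -0.11 to -0.52 with standard errors of 0.92 to 1.195, and its sign depended on single libraries. It turned positive without Eµ-PRMT5 spleen 1 for Egr1 (0.19) and without Eµ-PRMT5 spleen 3 for Egr2 (0.82) and Egr3 (0.06). Of the double transgenic spleens, leaving out replicate 1 turned Egr1 (0.0092) and Egr2 (0.25), and leaving out replicate 2 or 3 turned Egr2 (0.21 and 0.05). Of the other immediate early genes 7 of 39 had a higher fitted level in the double transgenics (median -0.78), as had 2 of 16 stress genes (median -0.72) and 15 of 16 inhibitors (median 0.36). Gadd45b, a growth arrest and DNA damage gene, had the largest difference of the early genes (log2 -2.27, edgeR adjusted p = 0.225), and edgeR called no gene of these lists. With spleen 4 of Eµ-PRMT5 left out, edgeR called 3 genes and again no member, with a log2 change of -2.98 for Nr4a3 (adjusted p = 0.113) and -2.09 for Cd69 (adjusted p = 0.154).

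In lymph nodes the same genotypes were compared in 4 Eµ-PRMT5/TCL1 and 3 Eµ-TCL1 libraries. Nr4a1 was at 85.3, 814, 1228 and 169.6 CPM in B cells of the Eµ-PRMT5/TCL1 nodes and at 339.7, 177 and 471 CPM in those of the Eµ-TCL1 nodes. Nr4a3 was at 2.65, 9.72, 52.7 and 5.46 CPM against 13.7, 2.79 and 9.50 CPM, and Nr4a2 at 2.27, 1.31, 93.7 and 2.60 CPM against 0, 1.07 and 7.75 CPM. Replicate 3 of the double transgenics, from which 362 B cells were kept, was the highest of all 7 nodes for the Nr4a genes, for Egr2, Egr3, Cd69 and Cd83, and was second to Eµ-TCL1 node 2 for Egr1 (367 against 488 CPM). Egr3 had the narrowest spread, with 15.9, 18.8, 20.3 and 14.9 CPM in Eµ-PRMT5/TCL1 nodes and 17.1, 14.1 and 13.5 CPM in Eµ-TCL1 nodes. edgeR called no member and 0% of all genes, passed no member at an unadjusted p under 0.05 (6.75% of all genes), and DESeq2 called none of the 7 members it tested (0.527% of all genes). The fitted change ran from -0.64 for Egr1 to 2.77 for Nr4a2 on the log2 scale, and without Eµ-PRMT5/TCL1 node 3 that of Nr4a2 was -0.73, of Nr4a3 -0.37, of Cd69 -0.06 and of Cd83 -0.37. Of the other immediate early genes 23 of 39 had a higher fitted level in the Eµ-PRMT5/TCL1 nodes (median 0.12), and of the stress genes 10 of 16 (median 0.34), with none called by edgeR. Plk2 was again furthest from 0 among the stress genes and lower in the double transgenics (log2 -3.32, SE 1.62, edgeR adjusted p = 0.773).

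Within a mouse, most members were higher in B cells of the node than of the spleen, except in mouse M0980. In the Eµ-TCL1 mice, 7, 6 and 8 of the 8 genes had more CPM in B cells of the node than of the spleen (M0244, M0228 and M0322). In the Eµ-PRMT5/TCL1 mice M0955-RT, M1040 and M0942 the counts were 8, 8 and 7. Nr4a2 in M0955-RT was nearly level, at 1.305 CPM in the node and 1.3003 CPM in the spleen. The share of all genes higher in the node of a single mouse was not computed. In the Eµ-PRMT5/TCL1 mouse M0980, whose spleen is replicate 4, no member was higher in the node. There Nr4a1 was at 904 CPM in the spleen and 85.3 CPM in the node, Egr2 at 125 and 25.2 CPM, and Cd69 at 268 and 57.5 CPM. Mouse M1040 showed the opposite order, with Nr4a1 at 306 CPM in the spleen and 1228 CPM in the node, Egr2 at 19.8 and 79.7 CPM, and Cd69 at 32.2 and 159.9 CPM.

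**Figure D2:**
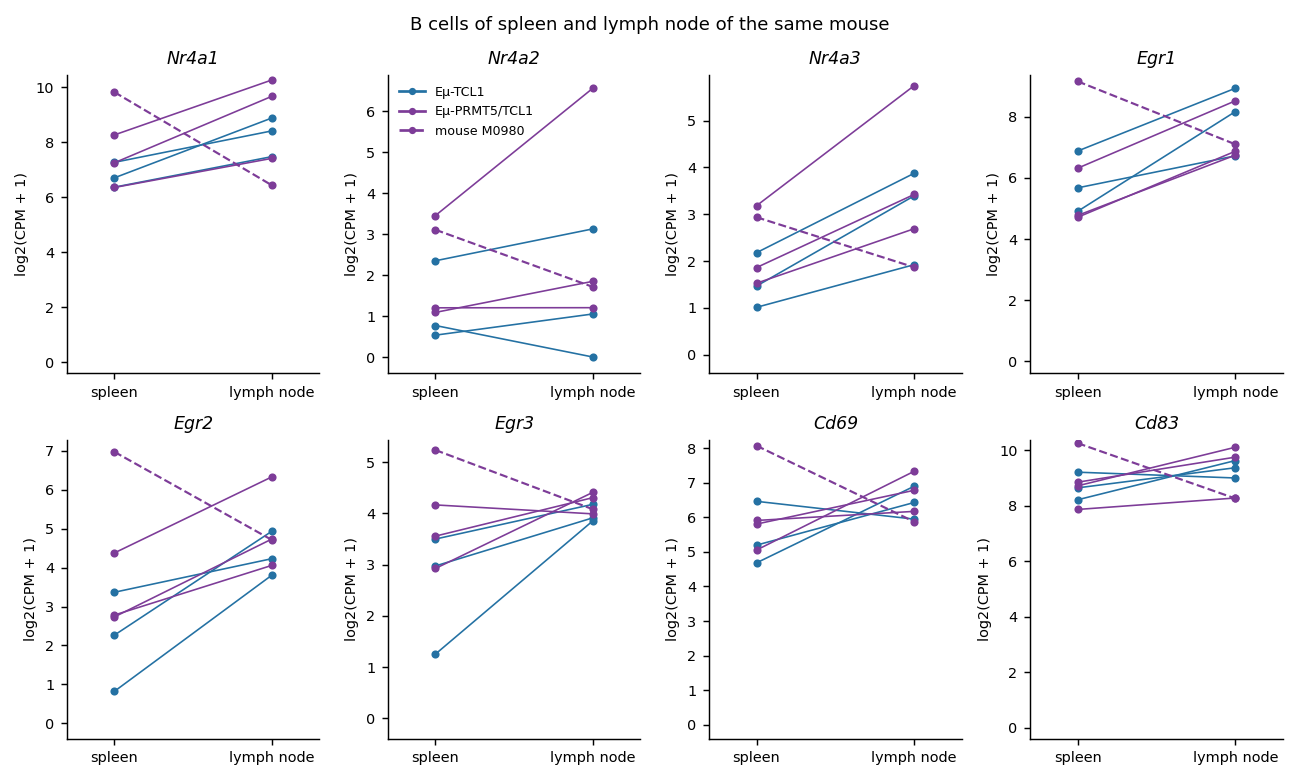
Level in B cells of spleen and lymph node of the 7 mice that gave both, as log2(CPM + 1) on the vertical axis. Each line joins the tissues of 1 mouse, in blue for Eµ-TCL1 and purple for Eµ-PRMT5/TCL1, and the dashed line is mouse M0980, the only one in which all 8 genes were lower in the node.

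With the mouse as a block, the fitted node level of the Eµ-TCL1 mice was above the spleen level for all 8 members, by a median of 1.502 on the log2 scale against -0.0009 over 11908 genes. edgeR called no member and 0% of all genes. At an unadjusted p under 0.05 it passed Nr4a3 (log2 1.91, SE 0.61), Egr1 (2.09, SE 0.78), Egr2 (2.62, SE 0.88) and Egr3 (1.59, SE 0.60), with 5.08% of all genes, while DESeq2 called no member and 0.0753% of all genes. Their edgeR adjusted p was 0.835 to 0.914. Nr4a1, Nr4a3, Egr1, Egr2 and Egr3 had more CPM in the node in each of the 3 mice, as 16.1% of all genes did. Egr1, for example, was at 105, 488 and 287 CPM in the nodes and at 50.1, 117 and 29.0 CPM in the spleens of the same mice. By share of thinned B cells with a transcript, Nr4a1 was lower in the node of M0244 (10.1% against 11.5% in the spleen). That node gave 195 B cells. Nr4a3, Egr1, Egr2 and Egr3 were higher in the node of each mouse by share too. Over the other immediate early genes, 33 of 39 had a higher fitted level in the node, with a median of 0.51, and edgeR called none. Ccl4, a chemokine gene, had the largest difference (29.5-fold, edgeR adjusted p = 0.698). Of the inhibitor genes, 14 of 16 were lower in the node, led by Lair1 (log2 -1.59, edgeR adjusted p = 0.818), and of the handling and stress genes 12 of 16 were higher, with a median of 0.23.

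In the Eµ-PRMT5/TCL1 mice the median difference between node and spleen was 0.90 on the log2 scale and again above 0 for all 8 members. Without mouse M1040 it was -0.23 for Nr4a2, -0.05 for Egr3, -0.14 for Cd69 and -0.05 for Cd83. edgeR called no member and 0% of all genes, passed only Nr4a3 of the members at an unadjusted p under 0.05 (log2 1.42, SE 0.55, adjusted p = 0.635) with 7.27% of all genes, and DESeq2 called no member and 0.419% of all genes. No member was higher in the node in all 4 mice, a pattern that 3.95% of all genes showed, and none in all 7 mice, which 1.28% did. Of the other immediate early genes 28 of 39 had a higher fitted level in the node (median 0.16), as had 14 of 16 stress genes (median 0.50) and 4 of 16 inhibitors (median -0.18), with none called by edgeR. S1pr1, the receptor that CD69 binds, had a log2 difference of -1.40 (edgeR adjusted p = 0.635). Whether the tissue difference itself differed between the genotypes was tested as an interaction. All 8 estimates were below 0 (median -0.46), with standard errors of 0.74 to 1.16, and 6 were above 0 without mouse M0980, from 0.07 for Egr1 to 0.91 for Nr4a2. edgeR called none and 0% of all genes, passed none at an unadjusted p under 0.05 (2% of all genes), and DESeq2 called none (0.00534% of all genes).

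Shares of B cells with a transcript were compared over the same mice. Over 7 mice Nr4a3 was seen in a mean of 1.79% of node and 0.498% of spleen B cells, with an exact two-sided sign-flip p of 0.0469 and an adjusted p of 0.486. Egr1 was seen in 16.4% against 8.19% (exact p = 0.125). For the other 6 members the exact p was 0.391 to 0.641. With 3 Eµ-TCL1 or 4 Eµ-PRMT5/TCL1 mice alone such a test cannot go below 0.25 or 0.125.

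B and T cells of the same library differed in every member, in opposite directions for different genes. edgeR, with the library as a block, called all 8 in the 13 spleens and all 8 in the 7 nodes. It called 59.2% and 51.9% of all genes in these comparisons, so a call is common there. Nr4a1, Egr1, Egr2, Egr3 and Cd83 were higher in B cells, and Nr4a2, Nr4a3 and Cd69 were higher in T cells, in both tissues. The Egr genes were thus all on the B-cell side and the Nr4a genes on both.

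Cd83 showed the largest difference. In spleens it was at 233 to 2108 CPM in B cells and at 1.55 to 55.7 CPM in T cells, 55.4-fold apart (log2 5.79, SE 0.29, edgeR adjusted p = 1.10e-09), and in nodes 88.8-fold apart (log2 6.47, SE 0.27, edgeR adjusted p = 5.73e-08). Egr3 was at 0.425 to 61.2 CPM in spleen B cells and at 0 to 2.24 CPM in spleen T cells (28.6-fold, log2 4.84, SE 0.47, edgeR adjusted p = 1.01e-06). In nodes Egr3 was 10.2-fold higher in B cells (log2 3.35, SE 0.31, edgeR adjusted p = 1.35e-05). Both genes were higher in B cells in all 13 spleens, as 9.85% of all genes were. Egr1 was 3.47-fold and 6.68-fold higher in B cells of spleens and nodes (edgeR adjusted p = 0.00765 and 8.55e-05), in 10 of 13 spleens and 7 of 7 nodes. Egr2 was 3.68-fold and 5.48-fold higher (edgeR adjusted p = 0.0250 and 9.21e-05), in 9 of 13 spleens and 7 of 7 nodes. In spleens the call of Egr2 was lost without Eµ-PRMT5 spleen 3 (adjusted p = 0.0569), Eµ-TCL1 spleen 1 (adjusted p = 0.0647) and 3 other libraries in turn.

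The Nr4a family divided. Nr4a1 was 3.12-fold higher in B than in T cells of spleens (log2 1.64, SE 0.32, edgeR adjusted p = 0.000588) and 5.83-fold higher in nodes (log2 2.54, SE 0.32, edgeR adjusted p = 0.000128). It was higher in B cells of 11 of 13 spleens. Nr4a2 was lower in B cells of every spleen, as 10.1% of all genes were, with 0.449 to 168 CPM in B cells and 7.48 to 497 CPM in T cells. Its log2 difference was -3.25 (SE 0.59, edgeR adjusted p = 0.000295) in spleens and -3.12 (SE 0.74, edgeR adjusted p = 0.00585) in nodes. Nr4a3 was higher in T cells of 12 of 13 spleens, with a log2 difference of -2.35 (SE 0.42, edgeR adjusted p = 0.000265), and -1.68 (SE 0.47, edgeR adjusted p = 0.0129) in nodes. The node call of Nr4a3 was lost without Eµ-TCL1 node 2 (adjusted p = 0.0501), without Eµ-TCL1 node 3 (adjusted p = 0.0618) and without pairing by library (adjusted p = 0.0838). That of Nr4a2 was lost without pairing (log2 -1.94, adjusted p = 0.123). Eµ-PRMT5 spleen 3 was the exception, at 63.7 CPM in B and 38.3 CPM in T cells. Eµ-PRMT5/TCL1 node 3 was the only node with more Nr4a2 in B than in T cells (93.7 against 79.6 CPM). Eµ-TCL1 node 1 was the only node with more Nr4a3 in B than in T cells (13.7 against 4.91 CPM).

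Cd69 had the smallest difference in spleens. The log2 difference was -0.57 (SE 0.20, adjusted p = 0.0230 by edgeR), with 5 of 13 spleens higher in B cells, 4 of them Eµ-PRMT5. In nodes it was -1.09 (SE 0.29, edgeR adjusted p = 0.00937), with 5 of 7 nodes higher in T cells. In spleens the call was lost when B and T cells were fitted without pairing them by library (log2 -0.36, edgeR adjusted p = 0.397). The other lists also split between the classes. In spleens edgeR called 18 of 40 other immediate early genes higher in B cells and 12 higher in T cells, with Cd86, a costimulatory ligand, 40.9-fold (adjusted p = 7.25e-09) and the transcription factor gene Irf4 20.8-fold higher in B cells (adjusted p = 6.70e-11). Spry2, an inhibitor of RAS-ERK signalling, was the early gene furthest to the T-cell side (log2 -4.27, adjusted p = 0.000500). edgeR called 22 of 29 receptor signalling genes higher and 6 lower in B cells, 9 and 6 of 16 inhibitors, 9 and 3 of 17 partners, and 11 and 1 of 16 stress genes. Large differences toward B cells were seen in genes of the B-cell lineage: Blk and Blnk among the signalling genes, Siglecg, Dok3 and Cd22 among the inhibitors, and Mef2c, H2-Aa and H2-Ab1 among the partners. Of the stress list, the called genes furthest to the B-cell side in spleens were Krt8, a keratin gene (839-fold), Hspb1 (30.8-fold) and Hspa1b (2.80-fold). In nodes the same counts were 18 and 5 of 39, 18 and 5 of 29, 9 and 6 of 16, 5 and 3 of 17, and 5 and 1 of 16. Over all genes edgeR called 3770 higher and 3419 lower in B cells of 12134 in spleens. In nodes it called 2993 and 3014 of 11569. In nodes the members higher in B cells of all 7 libraries were Nr4a1, Egr1, Egr2, Egr3 and Cd83, as 21.1% of all genes were, and none was lower in all 7, as 14.8% were.

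**Figure D3:**
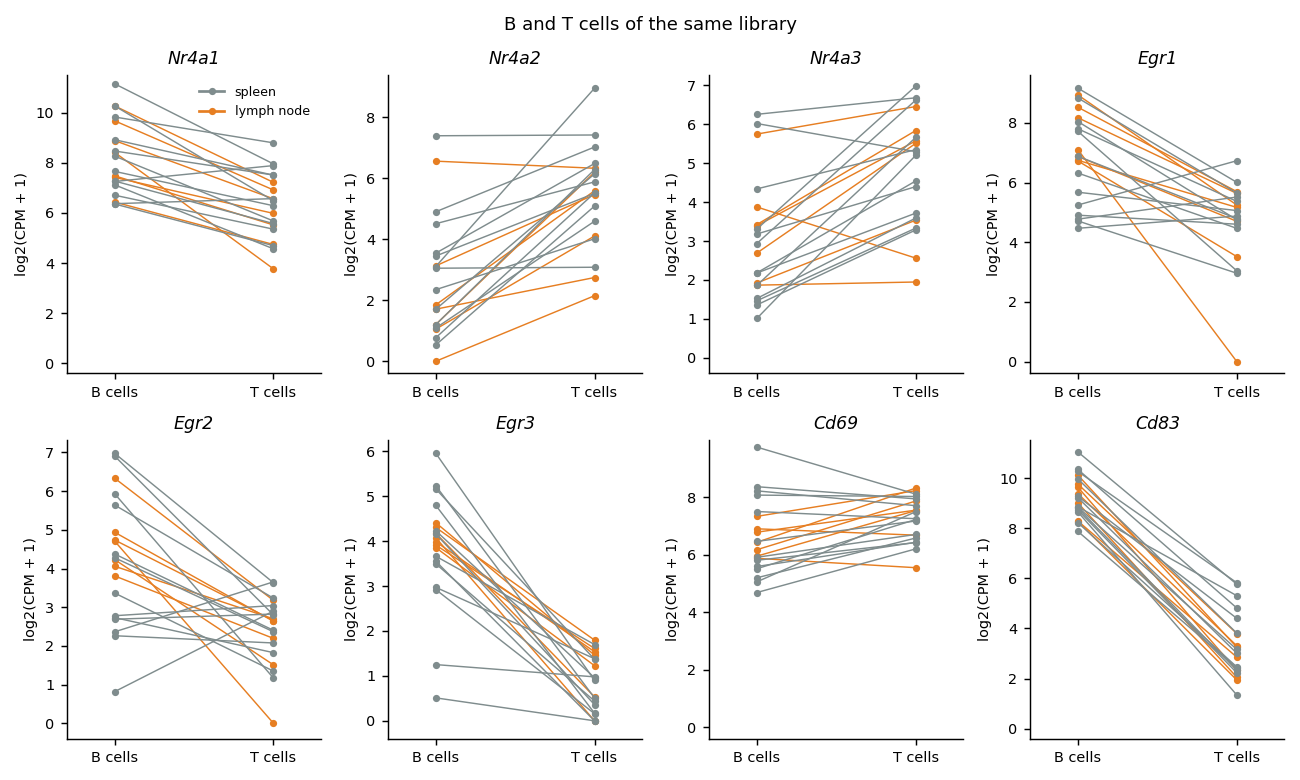
Level in B and T cells of the same library, as log2(CPM + 1) on the vertical axis, with 1 line for each of 13 spleens (grey) and 7 lymph nodes (orange). Lines slope down from B to T cells for Cd83 and Egr3, up for Nr4a2 in all spleens, and cross for Cd69.

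Shares of cells thinned to the same depth gave 7 members past the adjusted threshold in spleens, all but Cd69, against 56.5% of all genes. Cd83 was seen in a mean of 45.3% of B cells and 1.48% of T cells, and Nr4a2 in 1.72% of B cells and 8.83% of T cells (exact two-sided sign-flip test over 13 spleens, adjusted p = 0.00120 for both). Nr4a1 was seen in 20.9% and 11.1% (adjusted p = 0.0125). Cd69 was seen in 15.9% and 16.7% of B and T cells (adjusted p = 0.838). In nodes 5 members passed, Nr4a1, the 3 Egr genes and Cd83, against 34.9% of all genes, each at the smallest p that 7 pairs allow, 0.0156. With any 1 node left out the 6 remaining pairs allow no p below 0.0312, and none passed. Cd69 was seen in 11.1% of B and 20.3% of T cells of nodes (adjusted p = 0.118). Free RNA had a median of 249 CPM of Cd83, 145 CPM of Nr4a1, 115 CPM of Cd69 and 36.0 CPM of Nr4a2 over the libraries. The median depth was 4267 to 16712.5 UMIs in B cells and 2788.5 to 9609 UMIs in T cells, and B-cell markers summed to 68.4 to 2042 CPM in the T cells. Set against the free RNA of its own library, the level in B cells was lower in 20 of 20 libraries for Nr4a3, in 18 for Nr4a2 (all but Eµ-PRMT5 spleen 1 and Eµ-PRMT5/TCL1 node 3), in 15 for Cd69, in 10 for Egr1, in 7 each for Egr2 and Egr3, in 5 for Nr4a1 and in none for Cd83. The level in T cells was lower than free RNA in 10 libraries for Nr4a3, in 6 for Nr4a2, in 4 for Cd69 and in 17 to 20 for the other 5 genes. How much of the level in B or T cells came from free RNA was not estimated.

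The difference between genotypes was also set against T cells of the same spleens. T cells come from the same preparation as the B cells and share its handling. In T cells Nr4a1 was at 77.0 to 246 CPM in Eµ-PRMT5 spleens, with a median of 180.4 CPM, and at 22.7 to 93.9 CPM in Eµ-TCL1 spleens, with a median of 43.2 CPM. Nr4a3 was at 22.3 to 125 CPM against 8.73 to 35.7 CPM, and Nr4a2 at 58.1 to 171 CPM against 7.48 to 44.96 CPM. Without Eµ-PRMT5 spleen 4, of which 45 T cells were kept, the lowest Eµ-PRMT5 level in T cells was 88.3 CPM for Nr4a1, 38.3 CPM for Nr4a3 and 58.1 CPM for Nr4a2. For Nr4a2 the ranges of T cells did not overlap, as for 1.24% of all genes in this direction. The level in T cells was below the free RNA of its own library in 17 of 20 libraries for Nr4a1, 10 for Nr4a3 and 6 for Nr4a2. How much free RNA added to these T-cell levels was not estimated. Tested as an interaction, the excess of B over T cells in the genotype difference was 1.67 on the log2 scale for Cd69 (SE 0.47, edgeR unadjusted p = 0.00328, adjusted p = 0.381), 1.62 for Nr4a3 (SE 1.00), 1.05 for Nr4a2 (SE 1.36) and 0.67 for Nr4a1 (SE 0.76). For Cd83 it was -1.04 (SE 0.62). edgeR called no member (0.033% of all genes), passed Cd69 alone at an unadjusted p under 0.05 (8.34% of all genes), and DESeq2 called none (0.513% of all genes). Without Eµ-PRMT5 spleen 4 the excess was 1.88 for Cd69 (adjusted p = 0.255), 1.84 for Nr4a3 and 0.78 for Nr4a1, that of Egr1 turned from -0.24 to 0.12, and no member was called.

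For the double transgenics against Eµ-TCL1 the same interaction ran from -1.46 (Nr4a2, SE 1.54) to 2.01 (Egr3, SE 1.43) on the log2 scale. edgeR called no member (0.00824% of all genes), passed none at an unadjusted p under 0.05 (5.83% of all genes), and DESeq2 called none (0.13% of all genes). In T cells of Eµ-PRMT5/TCL1 spleen 4, Nr4a2 was at 497 CPM against 23.2 to 77.2 CPM in the other 3, and Nr4a1 at 442 CPM. Both were the highest T-cell levels of their gene in any of the 20 libraries. T-cell levels lay below the free RNA of their own library in 20 of 20 libraries for Cd83, 17 for Nr4a1, 10 for Nr4a3 and 4 for Cd69. What free RNA contributed to them was not estimated, so a relation between B and T cells need not be one of T-cell expression. Over the 13 spleens the level in B cells followed the level counted in T cells for Cd69 (Pearson r = 0.824, permutation p = 0.000880, and Spearman rho = 0.742, permutation p = 0.00505) and for Cd83 (r = 0.771, permutation p = 0.00232, and rho = 0.824, permutation p = 0.00105). The same relation was computed for Nr4a1 (r = 0.636, permutation p = 0.0208, and rho = 0.648, permutation p = 0.0197) and Nr4a3 (r = 0.562, permutation p = 0.0454, and rho = 0.659, permutation p = 0.0162). For Nr4a2 r was 0.412 (permutation p = 0.163) and rho 0.533 (permutation p = 0.0653). Without the 2 spleens farthest from the median of the B-cell level, r was 0.731 for Cd69, 0.671 for Cd83, 0.706 for Nr4a1, 0.531 for Nr4a3 and 0.256 for Nr4a2. For Egr1, Egr2 and Egr3, r was 0.160, 0.0499 and 0.202 (permutation p = 0.602, 0.868 and 0.505) and rho 0.280, -0.03 and 0.228 (permutation p = 0.351, 0.936 and 0.449). These 8 relations were computed as 1 family. After Benjamini-Hochberg adjustment the permutation p of r was 0.00704 for Cd69, 0.00928 for Cd83, 0.0555 for Nr4a1, 0.0907 for Nr4a3 and 0.261 to 0.868 for the others. That of rho was 0.0202, 0.00840, 0.0394 and 0.0394 for the same 4 genes and 0.105 to 0.936 for the others. After the mean of each genotype was removed, a setting chosen after the data were seen, r was 0.804 for Cd69 and 0.781 for Cd83, but 0.472 for Nr4a1, 0.223 for Nr4a3 and 0.165 for Nr4a2. With the genotype means kept and Eµ-PRMT5 spleen 4 left out, r was 0.821 for Cd69, 0.768 for Cd83, 0.635 for Nr4a1 and 0.557 for Nr4a3.

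The members also varied together from spleen to spleen, with library and depth shared by all genes of a point. Over the 13 spleens all 28 pairs had a positive Pearson r of log2(CPM + 1) in B cells, with a median of 0.704, against a median of 0.0837 over all 66591570 pairs of genes tested. The highest was 0.915 for Nr4a1 with Nr4a3 (permutation p = 5.00e-05, and rho = 0.923, permutation p = 3.00e-05) and the lowest 0.199 for Nr4a2 with Egr3 (permutation p = 0.513, and rho = 0.291, permutation p = 0.334). Adjusted over the 28 pairs by Benjamini-Hochberg, the p of r was 0.000467 and 0.513 for these 2 pairs and that of rho 0.000840 and 0.334. Without the 2 spleens farthest from the median of the first gene, the median r was 0.529 and 1 pair was below 0. The median was 0.777 over the 3 pairs of Nr4a genes, 0.794 over the 3 pairs of Egr genes and 0.538 over the 9 pairs between the families. No genotype has more than 5 spleens, so no r is given within 1 genotype. With the mean of each genotype removed, the median was 0.668 and all 28 pairs were again above 0, from 0.135 to 0.914. Without Eµ-PRMT5 spleen 4 the median was 0.716 and the lowest r 0.5003.

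**Figure D4:**
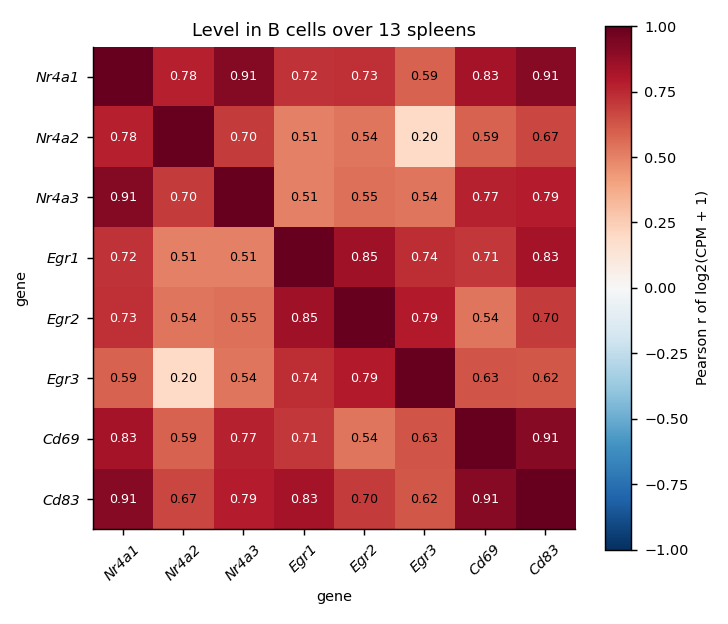
Pearson r between the members over 13 spleens, from log2(CPM + 1) in B cells, with red for positive and blue for negative values. All 28 pairs are positive, from 0.199 (Nr4a2 with Egr3) to 0.915 (Nr4a1 with Nr4a3).

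The genes whose B-cell level over the 13 spleens was most like the mean of the 8 standardized members were Myc (r = 0.949), Rbsn (0.945), Per1 (0.944), Dusp1 (0.940), Zfp36l1 (0.936), Arl5b (0.935), Dusp2 (0.930), Gpbp1 (0.929), Ythdf2 (0.927) and Tagap (0.926). They are the top 10 of 11541 genes by this measure, which carries no test. Myc encodes a growth-promoting transcription factor, and Dusp1 and Dusp2 encode phosphatases that switch off MAP kinases. The mean standardized level was highest in Eµ-PRMT5 spleens 1 and 3 (1.75 and 1.33), followed by Eµ-PRMT5/TCL1 spleen 4 (0.97) and Eµ-PRMT5 spleen 5 (0.56). It was lowest in Eµ-TCL1 spleen 4 (-1.07).

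Pairs of members were also counted within single cells. Among B cells thinned to 1500 UMIs, cells with both genes of a pair were counted against the number that independence would give, for pairs and libraries with at least 5 cells so expected. The ratio was above 1 in every such library for all 28 pairs, though 5 pairs of Nr4a2 or Nr4a3 could be read in only 1 library. For Nr4a1 with Egr1 it was 1.55 to 5.56 in 14 libraries (median 2.43), for Nr4a1 with Cd69 1.31 to 3.74 in 16 libraries (median 1.84) and for Cd69 with Cd83 1.10 to 2.33 in 20 libraries (median 1.37). For Egr2 with Egr3 it was 4.18 and 6.73 in the 2 libraries that could be read. Cells of a library share a source, and the ratio was not computed for other gene pairs, so the ratios are a description and show nothing particular to the members. In B cells Nr4a3 lay below the free-RNA level of its own library in 20 of 20 libraries and Nr4a2 in 18. At least 4 of the 8 genes were seen in 21.4% of B cells of Eµ-PRMT5 spleen 1, in 12.97% of Eµ-PRMT5/TCL1 spleen 4 and 12.98% of Eµ-PRMT5/TCL1 node 3, and in 0.375% of Eµ-PRMT5 spleen 4, the lowest of the 20 libraries. The median over libraries was 2.32%, and none of the 8 was seen in 14.3% to 67.0% of B cells.

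In 6 spleens B cells could be split by their heavy-chain V gene, into cells with the most used V gene of the library (leading-V) and cells with another (other-V). These were Eµ-PRMT5 spleens 3 and 5, Eµ-TCL1 spleen 3 and Eµ-PRMT5/TCL1 spleens 1, 3 and 4. A leading V gene marks an expanded clone where one is present, and other-V cells are the remaining B cells of the same preparation. All 8 members had a lower fitted level in leading-V cells, with a median log2 change of -1.15, but edgeR called no member (0.0109% of 9175 genes). Without Eµ-PRMT5 spleen 3 that of Nr4a1 was 0.17. At an unadjusted p under 0.05 it passed Cd69 alone (4.63% of all genes), and DESeq2 called Cd69 alone (adjusted p = 0.00421, 0.199% of all genes). Cd69 was 0.412-fold in leading-V cells (log2 -1.28, SE 0.26, edgeR adjusted p = 0.639). It was lower there in 5 of 6 spleens, with 127, 249.99, 12.3, 28.4 and 251 CPM in leading-V cells against 311, 796, 52.6, 117 and 467 CPM in other-V cells. In Eµ-PRMT5/TCL1 spleen 1 the levels were close (61.2 and 53.7 CPM).

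For the other members the direction depended on the spleen. In Eµ-PRMT5 spleens 3 and 5 and in Eµ-TCL1 spleen 3 all 8 genes were lower in leading-V cells. Nr4a1 was at 163 against 1537 CPM, 414 against 819 CPM and 31.4 against 160 CPM in these 3 spleens. In the 3 Eµ-PRMT5/TCL1 spleens it was higher in leading-V cells, at 227 against 60.2 CPM, 318 against 107 CPM and 916 against 666 CPM. Egr2 likewise was at 14.3 against 162 CPM, 12.2 against 61.4 CPM and 0.425 against 78.3 CPM in the first 3, and at 7.47 against 2.87 CPM, 20.2 against 10.9 CPM and 129 against 33.6 CPM in the double transgenics. The other-V side rested on 44 cells in Eµ-PRMT5/TCL1 spleen 3 and on 88 cells in Eµ-PRMT5 spleen 5. Other-V cells held 0 Nr4a2 UMIs in Eµ-PRMT5/TCL1 spleens 1 and 3 and 2 in spleen 4, and 5, 0 and 3 Nr4a3 UMIs in spleens 1, 3 and 4, so these ratios rest on few counts and on the pseudocount. Of Egr2 the other-V cells held 7, 5 and 22 UMIs in the same spleens. Whether these directions differ between genotypes was not tested, and how many of all genes show them was not computed. Of the other immediate early genes, 31 of 36 were lower in leading-V cells (median -0.33), and of the stress genes 15 of 16 (median -0.46). Higher in leading-V cells were 20 of 28 receptor signalling genes, 10 of 16 partners and 12 of 15 inhibitors, among them Cd72, a coreceptor that dampens B-cell receptor signals (log2 1.14, edgeR adjusted p = 0.639). edgeR called none of these genes.

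**Figure D5:**
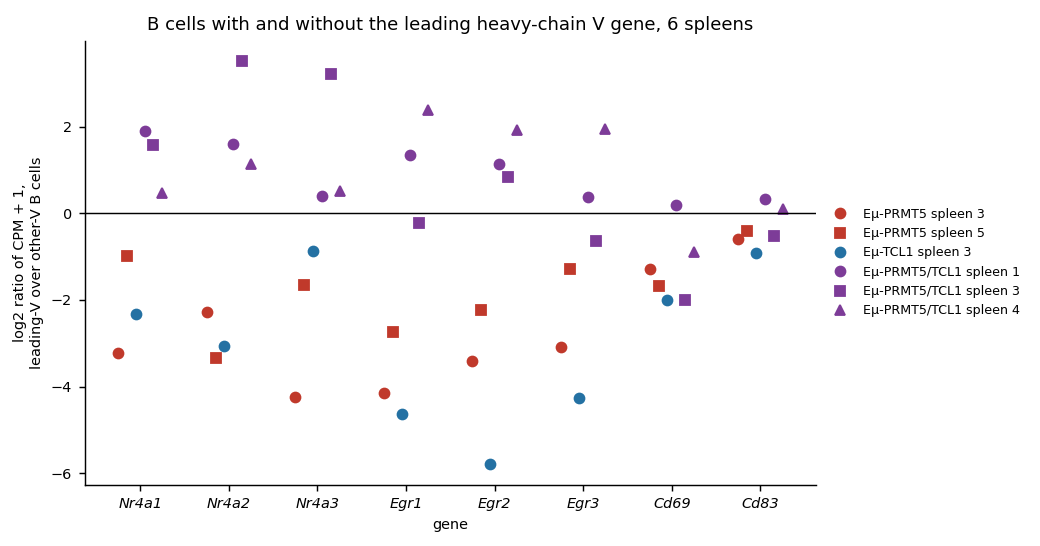
Log2 ratio of CPM + 1 in leading-V over other-V B cells on the vertical axis for each gene, with 1 point for each of 6 spleens. The Eµ-PRMT5 and Eµ-TCL1 spleens lie below 0 for all 8 genes, and the 3 Eµ-PRMT5/TCL1 spleens lie above 0 for Nr4a1, Nr4a2, Nr4a3 and Egr2. The share of all genes with this pattern was not computed.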

How the data were processed

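Live cells from 13 spleens and 7 lymph nodes were profiled by droplet scRNA-seq. The authors deposited unnormalised UMI counts per gene and barcode on GRCm38, made with Cell Ranger 2.0.1 per the submitters' processing notes, which also name Seurat 2.2.1. The headers of the count matrices name a later version, and the annotation release is not given in the sources used here.

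In each library, barcodes were kept as cells if their UMIs reached the 99th percentile of the top 3000 barcodes divided by 10, if 200 genes or more were detected and mitochondrial transcripts made up no more than 10%. Scrublet (in scanpy 1.11.5) scored doublets, and the highest-scored cells up to 0.8% per 1000 cells were removed. B cells were gated as stated in the report, and T cells by at least 1 Cd3 and 1 T-cell receptor constant transcript without Cd79a or Cd79b. Counts were summed per library and class, filtered with filterByExpr, scaled by TMM and tested with edgeR 4.0.16 (quasi-likelihood, Benjamini-Hochberg, adjusted p under 0.05) in R 4.3.3, with mouse as a block between tissues and library between classes. DESeq2 1.42.0 was the alternative. Shares of cells were compared at 1500 UMIs by exact permutation or sign-flip tests over libraries (scipy 1.17.1), and log values took a pseudocount of 1. UMIs per library ran from 9348094 to 72440894.. The scripts were tested on simulated data.

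Replicate numbers are shared across genotypes but belong to different mice, so they were not used to pair samples. Nodes and spleens were paired by the mouse in the labels, and B and T cells by library. The members and gene lists were chosen with earlier results of these data known. All 8 members were described. Of each list the called genes (the 3 furthest changed where over 5 were called, the 2 furthest where none was) were eligible to be named, and only a part of them is named, chosen after their values were seen. Other size factors, filters, cell calls, blocks and left-out libraries were tried. A narrower B-cell gate and one gene of the lists are not reported here.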

Additional observations from a re-analysis of the deposited data

Results flagged for a closer look

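Of 128 groups of 4 or 5 libraries checked for a library far from the others, 14 had one, where chance gives about 1 in 20 if values are normal. The checks share libraries and are not independent, and CPM values are skewed. Eµ-PRMT5/TCL1 lymph node 3 stood apart in B cells for Nr4a2 (93.7 CPM, 9.12% of cells), Nr4a3 (52.7 CPM, 6.25% of cells), Egr1 (367 CPM) and Egr2 (79.7 CPM). Eµ-PRMT5/TCL1 spleen 4 stood apart in B cells for Egr1 (571 CPM), Egr2 (125 CPM) and Cd69 (268 CPM, 26.3% of cells), and in T cells for Nr4a2 (497 CPM). Nr4a2 in B cells of Eµ-PRMT5 spleen 1 (168 CPM), Egr2 in B cells of Eµ-TCL1 spleen 3 (60.1 CPM) and Nr4a3 in T cells of Eµ-TCL1 spleen 2 (35.7 CPM) were the others.

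In 4 of 48 contrasts, every spleen of one genotype lay on one side of 0 and every spleen of another on the other. The mean log2 ratio of leading-V over other-V B cells was -2.11 in the 2 Eµ-PRMT5 spleens and 1.31 in the 3 Eµ-PRMT5/TCL1 spleens for Nr4a1. It was -2.80 and 2.08 for Nr4a2, -2.96 and 1.37 for Nr4a3 and -2.82 and 1.29 for Egr2. The difference was not tested, and how many of all genes separate the spleens in this way was not computed. Few UMIs lay behind some of these ratios, which are then set by the pseudocount of 1. Other-V cells held 0 Nr4a2 UMIs in Eµ-PRMT5/TCL1 spleens 1 and 3 and 2 in spleen 4, and 5, 0 and 3 Nr4a3 UMIs in spleens 1, 3 and 4. Of Egr2 they held 7, 5 and 22 UMIs in these spleens.

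The members were also read in classes that no comparison used. In plasma cells of 12 libraries with at least 30 such cells (2266 cells), the median over libraries was 139.6 CPM for Cd83, 88.1 for Cd69, 61.7 for Nr4a1, 58.0 for Egr1, 7.49 for Egr2, 2.06 for Egr3, 1.63 for Nr4a2 and 0.859 for Nr4a3. In myeloid cells of 16 libraries (4841 cells) it was 57.4 CPM for Nr4a1, 23.2 for Nr4a2, 11.5 for Cd69, 9.60 for Cd83, 3.46 for Egr1, 1.07 for Nr4a3, 0.958 for Egr2 and 0.1005 for Egr3. None of these was set against the free-RNA level by a test.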

How the results depend on the processing

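Leaving out 1 library or mouse kept the direction and the side of the threshold for 649 of 718 changes of single members, with 58 reversals, and other settings for 684 of 711, with 17. For shares of cells the counts were 188 of 232, with 42 that no longer passed and 2 reversals, and 94 of 96. The cause of the exceptions was not tested.

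DESeq2 called more genes than edgeR: 691 for Eµ-PRMT5 against Eµ-TCL1 spleens (4 members; edgeR called 3 genes), 27 for Eµ-PRMT5/TCL1 against Eµ-TCL1, 127 for Eµ-PRMT5/TCL1 against Eµ-PRMT5 (1 member), 65 in nodes, 10 and 48 between the tissues of Eµ-TCL1 and Eµ-PRMT5/TCL1 mice, 1 for their interaction, 61 and 18 for the B minus T differences and 20 for leading-V (1 member). It moved the median of all genes by 0.13, 0.11, -0.28 and -0.13 on the log2 scale for both tissue comparisons, B against T in spleens and leading-V. Without the low-count filter the counts were 21 and 30 for the tissues, 4 for the interaction, 7 for B minus T in Eµ-PRMT5 and 67 for leading-V (1 member). With Xist as a covariate they were 1 and 0 for Eµ-PRMT5 and Eµ-PRMT5/TCL1 against Eµ-TCL1 spleens. B minus T in Eµ-PRMT5 gave 2 with looser cell calling and 8 with doublets kept. Leading-V gave 0 without immunoglobulin genes and 0 with at least 6 Ighv UMIs.

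With the replicate number as a block, which here is only a number, 22 genes were called for Eµ-PRMT5 against Eµ-TCL1 spleens, 0 for Eµ-PRMT5/TCL1 against Eµ-TCL1 and 1 against Eµ-PRMT5, with no member. Under it Egr1 turned to -0.092 for Eµ-PRMT5/TCL1 against Eµ-TCL1, and Egr2 to 0.22 and Egr3 to 0.53 against Eµ-PRMT5. Without the mouse or library block, Nr4a2 was 1.36 in the tissue interaction, Egr2 -0.45 and Egr3 -0.053 for B minus T in Eµ-PRMT5, and Nr4a3 0.15, Egr1 0.13 and Egr2 -0.10 for B minus T in Eµ-PRMT5/TCL1. Leading-V then gave 0 genes, and B against T called 7 members in spleens and 6 in nodes. With the block B against T called 59.2% and 51.9% of all genes, so a call is common there. The share of all genes called without the block is not given here.

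Other reversals were Egr2 at 0.00062 for Eµ-PRMT5/TCL1 against Eµ-PRMT5 with looser calling, and in nodes with Xist as a covariate Nr4a1 -0.22, Nr4a3 -0.087, Cd69 -0.11 and Cd83 -0.33. Nr4a2 in the interaction was 0.16 by DESeq2, 0.033 with looser calling and 0.31 with doublets kept.

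Leaving out 1 library at a time, genes called ran from 1 (without Eµ-PRMT5 spleen 1) to 318 (without spleen 4) for Eµ-PRMT5 against Eµ-TCL1, with 0 to 3 members. They were 0 throughout for Eµ-PRMT5/TCL1 against Eµ-TCL1 spleens, 0 to 3 against Eµ-PRMT5 (3 without Eµ-PRMT5 spleen 4), 0 to 11 in nodes (11 without Eµ-TCL1 node 1), 0 to 1 and 0 to 3 between tissues (highest without the mouse of spleen 1 of each), 0 (without Eµ-TCL1 spleen 2) to 29 (without Eµ-PRMT5 spleen 5) and 1 to 3 (without Eµ-TCL1 spleen 1) for B minus T, and 0 (without Eµ-PRMT5 spleen 5) to 2 (without Eµ-PRMT5/TCL1 spleen 3) for leading-V. In B against T, Nr4a3 was lost in nodes without Eµ-TCL1 node 2 (adjusted p = 0.0501) or 3 (adjusted p = 0.0618), and the 5 members past the threshold by share became 0 without any 1 node, where 6 pairs allow no p below 0.0312.

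The log2 changes that changed sign ranged as follows. For Eµ-PRMT5 against Eµ-TCL1, Egr2 ran from -0.052 to 2.99. For Eµ-PRMT5/TCL1 against Eµ-TCL1 spleens, Nr4a2 ran from -0.11 to 1.44, Egr1 from -1.22 to 1.14, Egr2 from -0.82 to 2.86, Egr3 from -0.058 to 1.35 and Cd83 from -0.24 to 0.47, and against Eµ-PRMT5, Egr1 from -2.06 to 0.19, Egr2 from -1.70 to 0.82 and Egr3 from -1.02 to 0.064. In nodes, Nr4a2 ran from -0.73 to 4.92, Nr4a3 from -0.37 to 1.55, Cd69 from -0.062 to 0.52 and Cd83 from -0.37 to 0.33. Between tissues of Eµ-PRMT5/TCL1 mice, Nr4a2 ran from -0.23 to 1.76, Egr3 from -0.049 to 0.79, Cd69 from -0.14 to 1.23 and Cd83 from -0.048 to 0.95. In the interaction, Nr4a1 ran from -1.13 to 0.47, Nr4a2 from -0.997 to 0.91, Nr4a3 from -1.06 to 0.27, Egr1 from -1.34 to 0.074, Cd69 from -1.15 to 0.32 and Cd83 from -0.63 to 0.38. For B minus T in Eµ-PRMT5, Egr1 ran from -0.84 to 0.60, Egr2 from -1.17 to 1.81 and Egr3 from -0.62 to 1.51, and in Eµ-PRMT5/TCL1, Nr4a1 from -0.68 to 0.39, Nr4a3 from -0.82 to 0.41, Egr1 from -0.75 to 0.69 and Egr2 from -1.01 to 1.97. Nr4a1 in leading-V ran from -0.92 to 0.17. The difference of Cd69 shares between B and T cells of spleens ran from -3.09 to 0.42 percentage points.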
